A study of Mus musculus with 8 samples.

Results

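The angiopoietin-like genes were followed here in the cochlea of mice with 1 mutated copy of *Opa1*. The members were the 5 genes whose symbols the count tables list as *Angptl1*, *Angptl2*, *Angptl4*, *Angptl6* and *Angptl7*, out of 47628 gene entries. All 5 passed the filter on low counts, which left 19366 genes to be tested, while 2 further symbols of the family had mean counts of 5.12 and 9, under the minimum of 10, and were not followed. *Angptl7* belongs to the set because the study had picked it from the comparison of genotypes in these same libraries, so its change between genotypes is given as a description without a test. By RT-qPCR on more mice, the study reported a trend to higher *Angptl7* in *Opa1*+/- mice, not a significant increase.

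RNA was sequenced from cochleae of 4 wild-type mice (WT, animals 4, 5, 6 and 8) and 4 heterozygous mice (*Opa1*+/-, labelled Het_2, Het_7, Het_484 and Het_491). Both groups were untreated littermates at p21 on a mixed C57BL/6J × 129Sv/Pas background. The *Opa1*+/- mice carried a knock-in of the human delTTAG mutation on 1 allele in every cell of the body, and homozygous animals die before birth. The whole cochlea was extracted, with several cell types in each library, so fewer cells of a type and less RNA per cell cannot be told apart in these values.

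Libraries held between 15978051 and 20828030 counts on named genes. *Opa1* itself lay between 111.7 and 125.9 CPM (counts scaled to a common library size) in WT and between 60.4 and 70.02 CPM in *Opa1*+/- mice, without overlap. Markers of hair cells, spiral ganglion neurons and the stria vascularis were present in every library, together with markers of fat, bone, skeletal muscle, marrow and blood. The difference between genotypes passed for none of 17 summed marker lists (exact two-sided permutation test, lowest adjusted p = 0.971), but with 4 mice a group the smallest p is 0.0286, which adjusts to 0.486 if 1 list alone reaches it, so no single list could have passed. Within WT, mouse 4 had the highest sum of 7 neutrophil and marrow markers, 1304 CPM against 398.1 to 486.4 CPM in the remaining 3, and the lowest sum of spiral ligament fibrocyte markers, 3424 CPM.

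Angiopoietin-like proteins are secreted glycoproteins built like the angiopoietins, with a coiled-coil part followed by a fibrinogen-like domain, but they do not bind the Tie2 receptor that angiopoietins use. Angptl4 is best known as an inhibitor of lipoprotein lipase, the enzyme that frees fatty acids from circulating fat, and its gene is switched on by the fatty acid sensors of the PPAR family, by low oxygen and by glucocorticoids. Angptl2 is made by fat and connective tissue and acts through integrins in inflammation, Angptl1 acts against the growth of vessels, and Angptl6 is a circulating factor of liver that counters obesity. Angptl7 is known from the cornea and the trabecular meshwork of the eye, where it takes part in the extracellular matrix and in the control of eye pressure.

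The members lay on 5 chromosomes of the GRCm38 build, by the GENCODE vM21 annotation, and 3 of the 5 were nested whole inside a single intron of a gene read from the other strand. *Angptl7* (chr4:148495183-148500460, minus strand, 5 exons) lay in intron 28 of *Mtor*, the kinase that couples growth to nutrients. *Angptl1* (chr1:156838562-156861078, plus strand) lay in intron 8 of *Ralgps2*, and *Angptl2* (chr2:33216069-33247717, plus strand) in intron 8 of its paralog *Ralgps1*, both encoding exchange factors for the small GTPase Ral. *Angptl6* (chr9:20873808-20879727, minus strand) shared 265 of its 1582 exon bases with *A230050P20Rik* on the other strand, and *Angptl1* shared 465 of 2841 exon bases with the antisense gene model *Gm37802*. *Angptl4* (chr17:33773750-33781830, minus strand) overlapped no annotated gene.

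**Figure D1:**
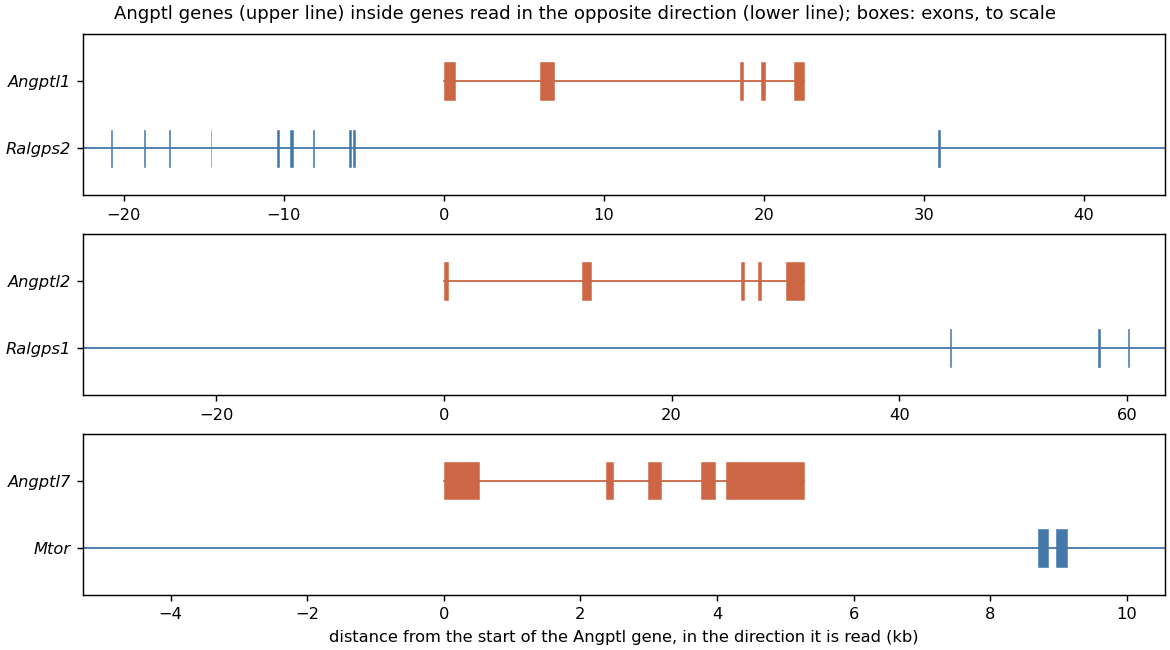
Exons of *Angptl1*, *Angptl2* and *Angptl7* (red, upper line) and of the gene around each (blue, lower line), drawn to scale against distance from the start of the Angptl gene in kb, with 1 coding transcript per gene. Every exon of the 3 Angptl genes lies in a gap between exons of the gene around it, so the pairs share no exon bases.

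The promoters of *Angptl7* and *Angptl2* are shown because the 2 genes were the extremes in the reported comparison of genotypes, on which *Angptl7* had been picked. The former had the widest difference and the latter almost none. Without WT mouse 5 the difference of *Angptl4* was wider, 0.97 against 0.79 for *Angptl7*. RefSeq (GRCm38.p6) held a promoter entry for 4 of the 5 members, each of 250 bases before and 50 bases after the start, and none for *Angptl4*. The sequences read 5′ to 3′ along the gene, and capitals mark matches to CANNTG (the E-box) and to GGGCGG (the GC box) on either strand. The *Angptl7* window is chr4:148500413-148500712 on the minus strand and the *Angptl2* window is chr2:33215711-33216010 on the plus strand.
Angptl7 promoter: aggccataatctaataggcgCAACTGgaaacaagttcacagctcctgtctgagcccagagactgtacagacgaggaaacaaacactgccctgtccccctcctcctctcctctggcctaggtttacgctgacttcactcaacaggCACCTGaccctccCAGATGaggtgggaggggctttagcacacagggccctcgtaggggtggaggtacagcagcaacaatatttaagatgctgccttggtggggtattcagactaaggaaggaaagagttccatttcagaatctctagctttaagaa
Angptl2 promoter: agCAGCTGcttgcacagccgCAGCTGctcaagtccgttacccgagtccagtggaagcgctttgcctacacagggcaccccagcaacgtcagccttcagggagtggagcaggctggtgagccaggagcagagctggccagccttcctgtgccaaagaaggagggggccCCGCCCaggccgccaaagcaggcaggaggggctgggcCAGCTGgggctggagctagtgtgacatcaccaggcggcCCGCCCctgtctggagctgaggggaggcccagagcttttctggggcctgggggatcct

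The *Angptl7* window held 3 E-boxes, which began at positions -230, -106 and -93 from the start, and no GC box. The *Angptl2* window held 3 E-boxes and 2 GC boxes, and was richer in G and C, at 66.7% against 51.3% for *Angptl7* and a median of 52.7% over 32851 promoters. The windows of *Angptl1* and *Angptl6* held 1 E-box each. Such matches are common, since 72.3% of all promoter windows held an E-box and 35.7% a GC box. The letters TATAAA (the TATA box), TGANTCA (the AP-1 motif), ACGTG (the core of hypoxia elements), AGAACA (part of the glucocorticoid element) and AGGTCA (part of nuclear receptor elements) were in none of the 4 windows. They were found in 13.6%, 7.81%, 19.6%, 19.0% and 16.3% of all windows. A match is a description of letters only, and a window without one says nothing about the factor.

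*Angptl7* was measured at 7.65, 7.57, 7.35 and 7.64 CPM in WT mice 4, 5, 6 and 8. Among the *Opa1*+/- mice it was at 8.99 CPM in Het_2, 15.7 CPM in Het_7, 13.1 CPM in Het_484 and 14.2 CPM in Het_491. The lowest *Opa1*+/- mouse lay above the highest WT mouse, with Het_2 nearest to the WT values. The means were 7.55 ± 0.139 and 13.0 ± 2.89 CPM (SD, n = 4 each), a log2 difference of 0.78 with a standard error of 0.16. *Angptl7* was the only member of the 5 whose groups did not overlap in this direction, and 1.98% of all tested genes showed the same separation, but this contrast is the one that chose the gene.

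The *Angptl7* levels lay much closer together in WT than in *Opa1*+/- mice, a description without a test. The 4 WT mice varied by 1.85% of their mean, and the *Opa1*+/- mice by 22.2%. Counts behind these levels were 123 to 156 per WT mouse and 152 to 314 per *Opa1*+/- mouse. From counting alone an SD of 0.636 CPM would come with the WT counts, so the WT mice lay closer together than counting error gives on average, at 0.219 times that SD. The *Opa1*+/- mice spread over 3.31 times their counting SD of 0.871 CPM. For *Angptl4* the same 4 WT mice spread over 7.21 times the counting SD. Leaving out Het_2 gave *Angptl7* a log2 difference of 0.93, and leaving out Het_7 gave 0.68.

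**Figure D2:**
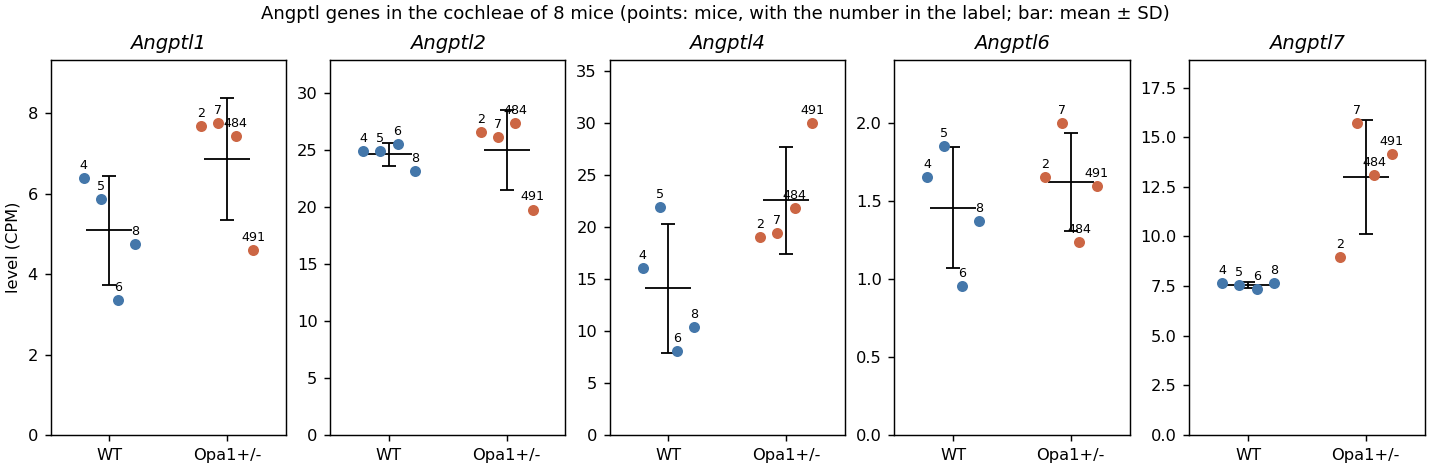
Level of each Angptl gene in CPM (vertical axes from 0, each with its own scale) in WT (blue) and *Opa1*+/- (red) mice, with points marked by the number in each label and bars for the mean ± SD of 4 mice. Only for *Angptl7* do the groups not overlap, and its WT mice lie between 7.35 and 7.65 CPM.

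*Mtor*, which surrounds *Angptl7*, did not pass the test between genotypes. It lay between 66.0 and 69.3 CPM in WT and between 66.6 and 71.3 CPM in *Opa1*+/- mice, ranges that overlap along most of their length. Its log2 difference was 0.01 with a standard error of 0.05 (edgeR's quasi-likelihood test, adjusted p = 0.974). Among *Opa1*+/- mice, Het_2 was lowest and Het_7 highest in both genes, while among WT mice, mouse 4 was highest in *Angptl7* and lowest in *Mtor*. Whether the counts used strand is not stated in the sources used here, so reads of the *Mtor* intron that fall on *Angptl7* exons cannot be told from *Angptl7* reads.

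*Angptl4*, the lipase inhibitor, was the most variable member. Its levels were 16.04, 22.0, 8.07 and 10.4 CPM in WT mice 4, 5, 6 and 8. Levels in Het_2, Het_7, Het_484 and Het_491 were 19.0, 19.4, 21.8 and 30.1 CPM. WT mouse 5 lay above 3 of the 4 *Opa1*+/- mice and the other WT mice lay below all of them, so the groups overlapped. The means were 14.1 ± 6.22 and 22.6 ± 5.14 CPM (SD, n = 4 each), with a log2 difference of 0.67 ± 0.29 (SE). This did not pass edgeR's quasi-likelihood test over all genes (adjusted p = 0.732). With 1 mouse left out at a time, the difference ranged from 0.48 without WT mouse 6 to 0.97 without WT mouse 5. Its spread within genotypes was larger than that of 96.7% of 3261 genes of like level.

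In WT mice the order of *Angptl4* was also that of fat markers, and in *Opa1*+/- mice it was not. The sum of 5 adipocyte markers (*Adipoq*, *Plin1*, *Lep*, *Cidec* and *Cfd*) was 84.2, 188.7, 10.8 and 32.6 CPM in WT mice 4, 5, 6 and 8, from high to low in mice 5, 4, 8 and 6 like *Angptl4*. Sums of 152.0, 133.3, 137.4 and 146.4 CPM were found in Het_2, Het_7, Het_484 and Het_491, within the WT range, and Het_2 was highest of its group in fat markers but lowest in *Angptl4*. Means of all 5 markers were higher in *Opa1*+/- mice, but the difference of the sums did not pass an exact two-sided permutation test (p = 0.171, adjusted p = 0.971). None of the 5 markers was at 0 in any mouse. After removal of the genotype means, *Angptl4* and the fat sum had a Pearson r of 0.90 (exact permutation p = 0.0382) and a Spearman rho of 0.81 (exact permutation p = 0.156) over 8 mice. This pair was singled out after its values were seen among 85 pairs of members and marker lists, and over those the adjusted p was 0.428 for r and 0.696 for rho (exact permutation within genotype). Without WT mice 5 and 6, the farthest from the median in fat markers, r was 0.66, and it stayed between 0.79 and 0.98 when each mouse was left out in turn. The part of fat in the *Angptl4* difference was not tested.

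Fat was not the only list of other cell types beside *Angptl4*. The sum of 6 erythroid markers had the same p as fat between genotypes (exact two-sided permutation p = 0.171, adjusted p = 0.971), with means of 12480 ± 6186 and 18382 ± 4626 CPM (SD over 4 mice, WT first) and 6 of 6 markers higher in *Opa1*+/- mice. Within genotype *Angptl4* had r = 0.70 and rho = 0.86 with it (exact permutation p = 0.135 and 0.0660, adjusted p = 0.627 and 0.696), and r was 0.85 without its 2 farthest mice, WT mouse 4 and Het_491. With 5 skeletal muscle markers *Angptl4* had r = -0.70 and rho = -0.71 (exact permutation p = 0.0104 and 0.0521, adjusted p = 0.428 and 0.696), and r was -0.75 without Het_7 and Het_491. Of the 85 pairs of members and lists, 9 had an unadjusted p of r under 0.05 and none passed after adjustment, which no single pair could have done, since the smallest exact permutation p of 0.00174 adjusts to 0.148. The part of blood or muscle was not tested either.

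**Figure D3:**
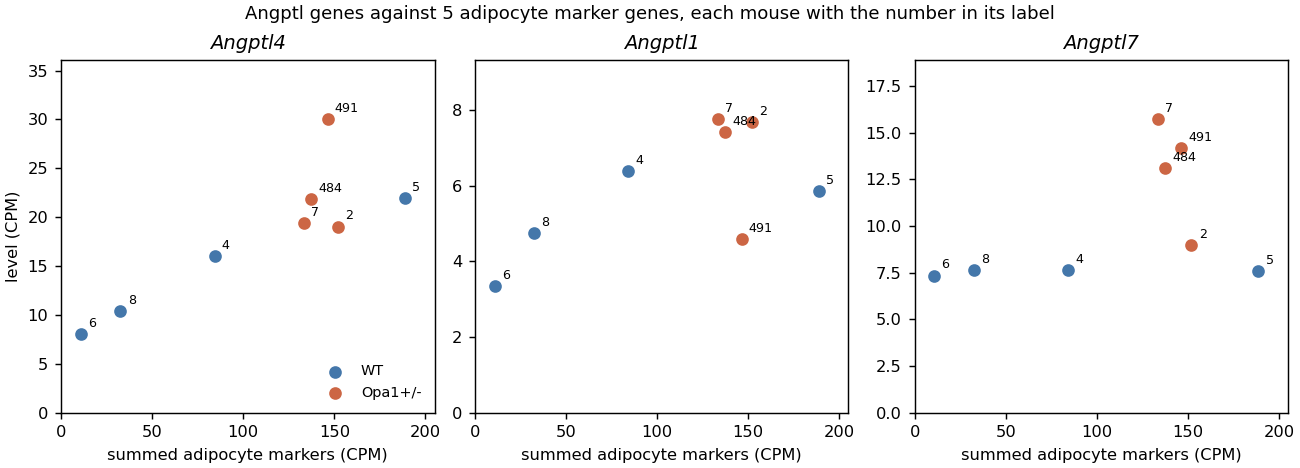
Level of *Angptl4*, *Angptl1* and *Angptl7* (vertical axes, CPM) against the sum of 5 adipocyte markers (horizontal axis, CPM) in each WT (blue) and *Opa1*+/- (red) mouse, marked by the number in its label. In WT, *Angptl4* runs from 8.07 to 22.0 CPM as the fat sum runs from 10.8 to 188.7 CPM, while *Angptl7* stays between 7.35 and 7.65 CPM.

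The other members followed the fat markers to different degrees, given here as descriptions over 8 mice that share their libraries. The r within genotype was 0.80 for *Angptl6*, 0.67 for *Angptl1*, 0.01 for *Angptl7* and -0.02 for *Angptl2*. Without WT mice 5 and 6, r was 0.34 for *Angptl6* and 0.38 for *Angptl1*, so both rested on those mice. Like *Angptl4*, *Angptl6* ran from high to low in WT mice 5, 4, 8 and 6, the order of the fat markers. The WT mice spanned a wide range of fat markers at nearly the same *Angptl7* level. For *Angptl7* the widest r was that with 5 bone markers, -0.79 with a rho of -0.57 (exact permutation p = 0.0417 and 0.229, adjusted p = 0.428 and 0.696), and its r was -0.87 without Het_2 and Het_491. Its lowest p came with stria vascularis markers, at r = -0.17 and rho = -0.67 (exact permutation p = 0.0122 and 0.0139, adjusted p = 0.428 and 0.590). Without WT mice 4 and 6 that r was -0.78.

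*Angptl1*, the gene of the vessel inhibitor, was at 6.39, 5.86, 3.35 and 4.75 CPM in WT mice 4, 5, 6 and 8. Het_2, Het_7, Het_484 and Het_491 had 7.69, 7.77, 7.43 and 4.60 CPM. Of the *Opa1*+/- mice, 3 lay together above all WT mice, and Het_491 fell among the WT values. The means were 5.09 ± 1.35 and 6.87 ± 1.52 CPM (SD, n = 4 each), with a log2 difference of 0.43 ± 0.23 (SE, edgeR adjusted p = 0.762), which was 0.28 without WT mouse 6. *Ralgps2* around it had a difference of the other sign, -0.16 ± 0.11 (SE, edgeR adjusted p = 0.790). WT mouse 6 was lowest in both genes, at 27.7 CPM for *Ralgps2*. The antisense model *Gm37802* was under the count minimum, with at most 0.418 CPM in any mouse.

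*Angptl2*, the integrin ligand, had the smallest difference between genotypes of the 5 members. It was at 24.9, 25.0, 25.5 and 23.2 CPM in WT mice 4, 5, 6 and 8. The values in Het_2, Het_7, Het_484 and Het_491 were 26.5, 26.2, 27.4 and 19.8 CPM. Apart from Het_491, which was below every other mouse, the *Opa1*+/- mice lay just above the WT mice. The means were 24.6 ± 1.02 and 25.0 ± 3.50 CPM (SD, n = 4 each), and the log2 difference was 0.02 ± 0.10 (SE, edgeR adjusted p = 0.976). Its sign has no firm value, since it was negative with total counts in place of scaled ones and when WT mouse 8, Het_2, Het_7 or Het_484 was left out, and it was 0.11 without Het_491. *Ralgps1* around it had a log2 difference of -0.18 ± 0.10 (SE, edgeR adjusted p = 0.766).

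*Angptl6* was the member of lowest level. WT mice 4, 5, 6 and 8 had 1.66, 1.86, 0.956 and 1.37 CPM. Het_2, Het_7, Het_484 and Het_491 had 1.66, 2.01, 1.24 and 1.596 CPM. The groups overlapped along most of their ranges. The log2 difference was 0.15 ± 0.25 (SE, edgeR adjusted p = 0.923), and with 1 mouse left out it ran from 0.0046 (WT mouse 6) and 0.03 (Het_7) to 0.27 (Het_484) and 0.29 (WT mouse 5). With 16 to 40 counts per mouse, the SD was 1.403 times that of counting alone in WT and 1.02 times in *Opa1*+/- mice, and the difference was smaller than its standard error. *A230050P20Rik*, which shares exon bases with it, had a log2 difference of 0.05 ± 0.12 (SE, edgeR adjusted p = 0.943), with means of 31.2 and 32.4 CPM. Reads from the shared bases cannot be assigned where strand was not used.

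**Figure D4:**
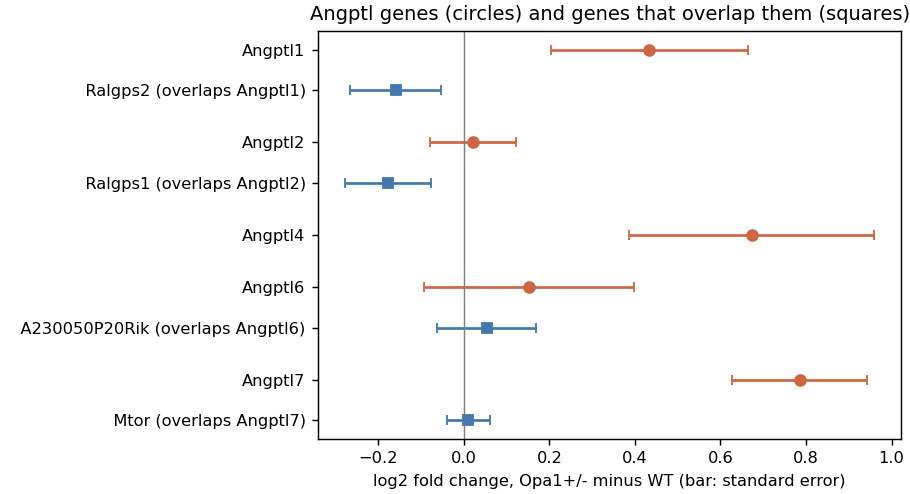
Log2 fold change of *Opa1*+/- against WT mice with its standard error for the 5 Angptl genes (red circles) and for the tested genes that overlap them (blue squares). *Angptl7* lies at 0.78 and *Mtor* around it at 0.01, and *Ralgps1* and *Ralgps2* lie at -0.18 and -0.16.

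With *Angptl7* set aside as chosen on this contrast, the other 4 members had fitted log2 differences above 0 with a median of 0.29, beside 3.95e-04 for all genes tested. Leaving out WT mouse 6 gave a median of 0.16, leaving out WT mouse 5 gave 0.40, and the sign of *Angptl2* turned under the settings named above. At an adjusted p under 0.05, edgeR called 0 of these 4 and 0.0258% of all genes tested, and DESeq2 called 0 of the 4 and 0.119% of all genes. At an unadjusted p under 0.05 edgeR had 1 of the 4, *Angptl4*, where 6.72% of all genes passed. With 1 mouse left out at a time, the unadjusted edgeR p of *Angptl4* ran from 0.0039 (WT mouse 5) to 0.131 (Het_491). That of *Angptl1* was 0.0215 without Het_491 and 0.0482 without WT mouse 4, also by edgeR. No call on *Angptl7* is counted here.

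Between members, levels were compared per kb of exon, as CPM per kb over the union of annotated exons. In WT the order was *Angptl4* at 3.99 ± 1.76, *Angptl2* at 3.92 ± 0.163, *Angptl7* at 3.50 ± 0.0646, *Angptl1* at 1.79 ± 0.474 and *Angptl6* at 0.922 ± 0.247 CPM per kb (SD, n = 4). The *Angptl4* mice, from 2.28 to 6.21 CPM per kb, spanned the ranges of both *Angptl2* and *Angptl7*, and the mean of *Angptl4* fell to 3.25 without WT mouse 5, below both, and to 3.805 without WT mouse 4, below the 3.904 of *Angptl2*. *Angptl2* and *Angptl7* and each of the later neighbours lay apart, though *Angptl1* and *Angptl6* only just, with a lowest value of 1.18 against a highest of 1.17 CPM per kb. In *Opa1*+/- mice the order was *Angptl4* at 6.38 ± 1.45, *Angptl7* at 6.03 ± 1.34, *Angptl2* at 3.97 ± 0.557, *Angptl1* at 2.42 ± 0.536 and *Angptl6* at 1.03 ± 0.199 CPM per kb (SD, n = 4). There *Angptl4* overlapped *Angptl7* and *Angptl7* overlapped *Angptl2*. The place of *Angptl2* depended on its length: over the longest transcript, which is not coding, it came first in both genotypes, at 6.92 and 7.02 CPM per kb. *Angptl4* followed there at 4.27 and 6.83 CPM per kb, and its mice overlapped those of *Angptl2* in both genotypes.

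The members did not vary together in a way that passed a test. After removal of the genotype means, the highest of 10 correlations over 8 mice was that of *Angptl4* and *Angptl6*, with r = 0.64 and rho = 0.62 (exact permutation within genotype, p = 0.158 and 0.205, adjusted p = 0.527 and 0.706). It fell to 0.05 without WT mice 5 and 6, so it rested on those mice. *Angptl1* and *Angptl6* had r = 0.62 and rho = 0.83 (exact permutation p = 0.128 and 0.0590, adjusted p = 0.527 and 0.590), and r was 0.54 without WT mouse 6 and Het_491. The highest r of *Angptl7* with another member was 0.20, with *Angptl4*. WT mouse 6 was lowest of its group in *Angptl1*, *Angptl4*, *Angptl6* and *Angptl7*, and Het_491 was lowest in *Angptl1* and *Angptl2* and highest in *Angptl4*.

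Among 19361 other genes, those whose levels followed each member most closely over the 8 mice, after removal of genotype means, are given as descriptions only. For *Angptl7* they were *Cdh2*, which encodes N-cadherin, with r = 0.97, then *0610009B22Rik* (0.97) and *C920025E04Rik* (0.96). For *Angptl4* they were *Bcl2l13*, a receptor for mitophagy on the outer mitochondrial membrane (0.99), *Ehhadh*, an enzyme of peroxisomal fatty acid oxidation (0.99), and *Nhp2l1* (0.99). For *Angptl1* they were the collagen gene *Col6a5* (0.99), *Map3k15* (0.99) and *Mmp16*, a membrane-bound metalloproteinase (0.99). For *Angptl2* they were *Bcl10* (0.99), *Gm4876* (0.98) and *Zscan20* (0.98), and for *Angptl6* they were *Akap11* (0.99), *Cnksr2* (0.99) and *Tmod2* (0.98). Such values are not rare with 8 mice and this many genes: 42 genes had an r over 0.90 with *Angptl7*, 88 with *Angptl4* and 238 with *Angptl6*.

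Genes tied to the family by function were read from 7 lists holding 72 genes, of which 64 were tested. Neither edgeR nor DESeq2 called any of them. At an unadjusted p under 0.05, *Gpihbp1* was higher and *Fcna* lower in *Opa1*+/- mice by edgeR, 2 of 64 beside the 6.72% of all genes.

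The lipases and their partners, among them the enzyme that Angptl4 inhibits, had log2 differences above 0 in 4 of 4 tested genes, with a median of 0.41, and in 3 of 4 when WT mouse 4, Het_2 or Het_491 was left out. The list holds 8 genes, and those not tested were under the count minimum. *Gpihbp1*, which carries lipoprotein lipase to the vessel wall, was at 4.17, 8.20, 1.67 and 2.64 CPM in WT mice 4, 5, 6 and 8. Among Het_2, Het_7, Het_484 and Het_491 it was at 9.28, 8.27, 6.50 and 10.3 CPM. WT mouse 5 was the only WT mouse within the *Opa1*+/- range, and the log2 difference was 1.03 ± 0.40 (SE, edgeR adjusted p = 0.722). *Lpl*, the gene of the lipase itself, averaged 60.9 ± 43.3 and 96.4 ± 20.2 CPM (SD, n = 4 each), with a log2 difference of 0.66 ± 0.42 (SE, edgeR adjusted p = 0.787), and WT mouse 5 was again highest in WT at 122.5 CPM. *Lipc*, the hepatic lipase gene, had a difference of 0.16 ± 0.28 (SE, edgeR adjusted p = 0.930), and the fourth gene, *Lmf1*, which is needed for lipase folding, had 0.04 ± 0.11 (SE, edgeR adjusted p = 0.951). Among WT mice, mouse 5 was lowest in *Lipc*, at 1.27 CPM, and mouse 6 highest in *Lmf1*, at 19.0 CPM. Leaving out WT mouse 8 gave a list median of 0.25, and leaving out WT mouse 5 gave 0.64, the WT mouse with the highest fat markers.

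PPAR receptors and targets had differences above 0 in 13 of 14 genes, with a median of 0.20. The lowest p values in the list belonged to *Rxra*, a partner receptor of the PPARs, with 0.12 ± 0.07 (SE, edgeR adjusted p = 0.772), to *Ucp3* with 0.51 ± 0.34 (SE, adjusted p = 0.794 by edgeR) and to *Acadl* with 0.34 ± 0.23 (SE, adjusted p = 0.797 by edgeR). The largest differences, named after their values were seen, were those of the fat genes *Fabp4* (1.002 ± 0.74, SE), *Pparg* (0.76 ± 0.62, SE) and *Cd36* (0.64 ± 0.55, SE). These 3 genes also ran from low to high in WT mice 6, 8, 4 and 5, the order of the adipocyte markers, with *Fabp4* at 22.3, 67.6, 213.5 and 535.2 CPM. The list's median was 0.51 without WT mouse 5. The part of fat in both lists was not tested.

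The remaining lists had medians whose size or sign often rested on 1 mouse. Of the angiopoietins and their Tie receptors, 2 of 5 differences were above 0, with a median of -0.03 that ran from -0.15 without WT mouse 5 to 0.07 without WT mouse 4, where 4 of 5 were above 0, and the largest was *Tie1* at 0.20 ± 0.11 (SE, edgeR adjusted p = 0.766). Of the binding partners and receptors of the family, 5 of 10 were above 0, with a median of -0.04 (-0.11 without Het_2 and 0.03 without Het_7) and *Tlr4* lowest at -0.26 ± 0.12 (SE, edgeR adjusted p = 0.749). Hypoxia regulators and targets had 6 of 12 above 0 and a median of -0.01 (-0.08 without WT mouse 4 and 0.04 without WT mouse 6), with *Vegfa* at 0.18 ± 0.13 (SE, edgeR adjusted p = 0.798). The glucocorticoid receptor and its targets had 2 of 10 above 0 and a median of -0.10, which became 4 of 10 and -0.01 without WT mouse 6, 4 of 10 and -0.02 without WT mouse 8, and -0.16 without WT mouse 5, with *Tsc22d3* at -0.19 ± 0.15 (SE, edgeR adjusted p = 0.826).

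Other genes with a fibrinogen-like domain had 5 of 9 tested above 0 and a median of 0.08. Without Het_484 these became 3 of 9 and -0.03, without Het_2 they became 4 of 9 and -9.26e-04, and without WT mouse 6 the median was 0.04. *Fcna*, the gene of the complement lectin ficolin A, was at 2.17, 1.51, 2.57 and 1.91 CPM in WT mice 4, 5, 6 and 8. The levels in Het_2, Het_7, Het_484 and Het_491 were 1.18, 1.55, 0.990 and 1.15 CPM. The groups met at WT mouse 5 and Het_7, and the log2 difference was -0.73 ± 0.23 (SE, edgeR adjusted p = 0.722). *Tnn*, which encodes tenascin-W, had 0.52 ± 0.27 (SE, edgeR adjusted p = 0.762).

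**Figure D5:**
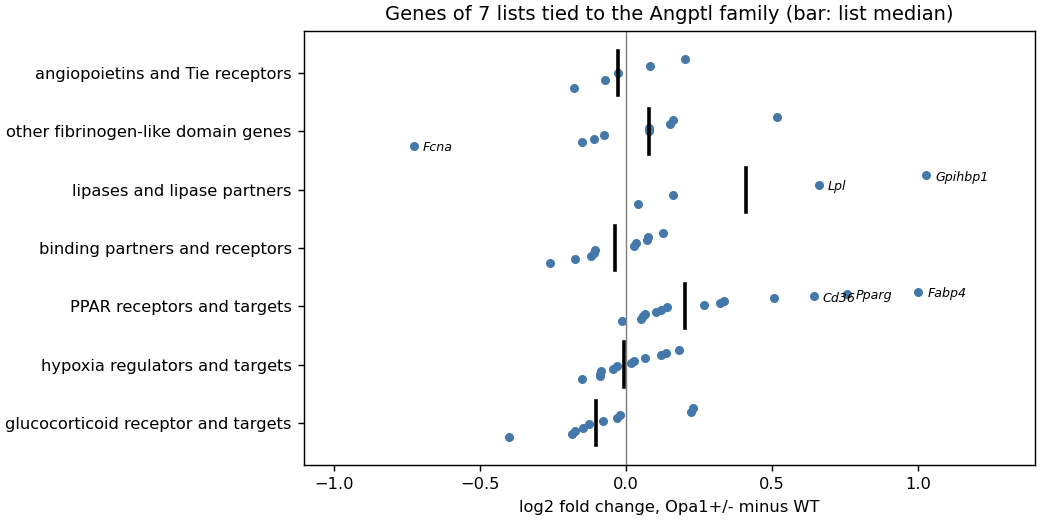
Log2 fold change of *Opa1*+/- against WT mice (horizontal axis) for the 64 tested genes of 7 lists, each point a gene and each bar a list median. The lipase and PPAR lists lie furthest to the right, with medians of 0.41 and 0.20, and genes beyond 0.6 on either side are named.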

How the data were processed

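RNA was sequenced from cochleae of 4 WT and 4 Opa1+/- mice, grouped by the sample titles. The authors extracted RNA, prepared CORALL libraries, sequenced paired reads with molecular identifiers and mapped them with STAR to GRCm38 (mm10), as the methods and the submitters' processing notes (FastQC, STAR) state. The methods name Lexogen's CORALL data pipeline for the raw data, and the counter within it and its use of strand are not given in the sources used here. For RNA extraction the labels give TRI Reagent or an RNeasy kit and the methods give TRI Reagent followed by Macherey-Nagel columns, without saying which mouse had which, so an extraction batch could not be checked. The authors deposited raw counts per gene symbol for each mouse, without normalization. The 15 entries without a symbol, 0.112% to 0.124% of the counts, were left out.

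Library sizes were the counts on named genes (15978051 to 20828030), scaled by TMM in edgeR 4.0.16 (R 4.3.3). Genes with a mean count over 10 after DESeq2 size factors were tested by quasi-likelihood in edgeR, and p-values of the 19366 genes were adjusted by Benjamini and Hochberg's method, with a threshold of 0.05. Standard errors are the log2 fold change divided by the root of F. DESeq2 1.42.0, other scalings and filters, robust estimation and each mouse left out were alternatives. Summed marker levels were compared between genotypes by exact two-sided permutation over 70 arrangements. Pairs of members, and members with marker sums, were permuted over 576 arrangements within genotype on log2 CPM (prior count 2 for members). Whether each library came from 1 mouse was taken from the titles and methods. Scripts were tested on simulated data.

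CPM are counts scaled to these library sizes. Lengths, positions and introns came from GENCODE vM21, promoters from RefSeq (GRCm38.p6). In a search with blastn 2.17.0, identical runs between transcripts of different Angptl genes were at most 25 bases. Against all other genes, transcripts of Angptl1, Angptl4 and Angptl7 aligned in part to 1626, 3691 and 3322 genes, with identical runs in the best alignment of 274 (the antisense Gm37802), 45 and 40 bases, and Angptl6 had 266 bases (A230050P20Rik), so counts of such stretches are uncertain. The named genes were the members, the genes overlapping them, the 3 genes most like each member, and up to 3 genes of lowest p in each list. Opa1 and the adipocyte markers were named as checks, and Fabp4, Pparg, Cd36 and Lmf1 after their values were seen. Members and lists were chosen with earlier results of these data known, and no list is independent support.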

Additional observations from a re-analysis of the deposited data

Results flagged for a closer look

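Among 94 groups of 4 mice checked, over 30 genes and 17 marker sums in each genotype, 6 had a mouse standing apart from the other 3, and chance flags about 1 in 20 groups. In *Opa1*+/- mice, animal Het_491 was the low one in 3 of these, at 4.60 CPM for *Angptl1* (7.43 to 7.77 in the others), 19.8 CPM for *Angptl2* (26.2 to 27.4) and 27.3 CPM for *A230050P20Rik* (33.9 to 34.2). Without it, the log2 difference of *Angptl2* was 0.11 and that of *Angptl1* 0.58. Het_491 also had the lowest skeletal muscle sum of all mice, 12.8 CPM, and the highest erythroid sum, 24937 CPM, though neither was flagged. In WT, mouse 8 was low for *Myoc*, at 1.91 CPM, and mouse 4 was low for the spiral ligament fibrocyte markers, at 3424 CPM, and high for the neutrophil and marrow markers, at 1304 CPM.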

How the results depend on the processing

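*Angptl1*, *Angptl4*, *Angptl6* and *Angptl7* kept a positive difference under every setting tried, between 0.28 and 0.60, 0.44 and 0.97, 0.0046 and 0.32, and 0.68 and 0.93, and no adjusted p of *Angptl1*, *Angptl2*, *Angptl4* or *Angptl6* fell under 0.05 (lowest 0.478). *Angptl2* turned negative with total counts (-0.0017) and ranged from -0.022 to 0.11 with each mouse left out. The count of genes called over all genes was 5 in the reported fit, 23 with DESeq2, 12 without a filter, 10 with robust estimation, 0 to 9 with each mouse left out and 0 without Het_484 and Het_491 together. With each mouse left out, correlations between members changed sign for *Angptl1* with *Angptl2* (-0.17 to 0.95), with *Angptl4* (-0.22 to 0.86) and with *Angptl7* (-0.37 to 0.26), for *Angptl2* with *Angptl4* (-0.54 to 0.16) and with *Angptl6* (-0.36 to 0.14), and for *Angptl7* with *Angptl4* (-0.0023 to 0.38) and with *Angptl6* (-0.12 to 0.70). Over the longest transcript, *Angptl2* was at 6.92 CPM per kb in WT and 7.02 in *Opa1*+/- mice. The correlation of *Angptl4* with fat markers, and leaving out mice from it, were chosen after seeing the data. No paired analysis was possible because the genotypes share no animal numbers. *Angptl6* had the lowest depth, with 16 to 40 counts per mouse.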
